A study of Mus musculus with 3 samples.

Results

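Resting alveolar macrophages were described here in the lungs of wild-type C57BL/6 mice that had received phosphate-buffered saline (PBS) through the trachea. They are the cells of the PBS library with at least 500 genes, at least 1000 unique molecular identifiers (UMIs, each standing for 1 captured RNA molecule) and at most 15% mitochondrial UMIs. A member also had a UMI for at least 4 of 9 genes (Atp6v0d2, Car4, Cidec, Krt79, Lpl, Marco, Mrc1, Plet1 and Slc39a2) and for fewer than 3 of 7 cell cycle genes (Mki67, Top2a, Cdk1, Birc5, Ube2c, Cenpf and Pclaf). The rule found 3737 members among the 8132 PBS cells that passed the quality limits, a share of 46.0% (95% exact Clopper-Pearson interval 44.9% to 47.0%). In all, 31681 cells of 33703 barcodes passed those limits in the series.

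The series holds 3 droplet libraries of lung macrophages, taken 24 h after 50 µL of PBS, of lipopolysaccharide (LPS, a bacterial cell wall component, 4 mg/kg) or of the same LPS given with 6 µg of the secreted lectin Reg3g. All 3 groups were wild type, and the mice were kept free of specific pathogens. The cells were sorted as live CD45+ Ly6G- F4/80+ cells carrying CD11b or CD11c. That gate selects against neutrophils and leaves macrophages beside monocytes and other cells. Each library pooled cells of 3 mice, and since every group is 1 library, intervals cover counting error only and no comparison of groups was tested.

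Alveolar macrophages live on the air side of the alveolar wall, where they take up inhaled particles and the surfactant lipids that epithelial cells secrete. They settle in the lung around birth and maintain themselves there by division, under the control of GM-CSF, TGF-beta and the nuclear receptor PPAR-gamma. Interstitial macrophages lie in the tissue behind the alveolar wall, and monocytes reach the lung from blood.

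Siglecf and Fabp1, a pair of markers that the rule did not use, were compared with the label. Siglecf encodes a sialic acid binding receptor by which mouse alveolar macrophages are gated. Its level in summed UMIs was 121 CPM (UMIs of the gene per 1000000 UMIs of the group; 95% exact Poisson interval 117 to 125) in the members, 2.96 in interstitial macrophages, 0.613 in monocytes and 0 in lymphoid cells of the same library. A Siglecf UMI was seen in 58.6% of members (57.0% to 60.2%; median 7663 UMIs per cell) and in 0 of 93 lymphoid cells (median 2036 UMIs), for which the exact interval reaches up to 3.89%. After each cell was thinned to 2000 UMIs the share was 22.2% of 3674 members and 0 of 49 lymphoid cells, with 63 members and 44 lymphoid cells too shallow to thin. Fabp1, a fatty acid binding protein, reached 1269 CPM in the members against 14.8 in interstitial macrophages, 7.11 in monocytes and 14.1 in lymphoid cells. Its share of cells with a UMI was 90.2% (89.2% to 91.1%) in members and 3.23% in lymphoid cells, or 72.4% and 2.04% after thinning. Both markers therefore stood with the label, far above their level in lymphoid cells.

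The rule cut through a thin region of cells. Of the PBS cells, 2265 had a UMI for none of the 9 genes, 1309 for 1 and 484 for 2, while 94 had exactly 3 and 70 exactly 4, and 1275 had 8. Siglecf stood at 9.41 CPM in the cells with 3 of the genes and at 80.5 CPM in those with 4, and Fabp1 at 50.8 and 512 CPM. On the other limit, 3151 members had a UMI for none of the 7 cycle genes, 487 for 1 and 99 for 2, and 31 cells just outside had 3. Stmn1, a tubulin regulator of dividing cells that was not in the rule, was graded across that limit, at 54.2, 109, 307 and 819 CPM in those 4 groups. Cycling cells are therefore separated from the members by a limit on a gradient.

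**Figure D1:**
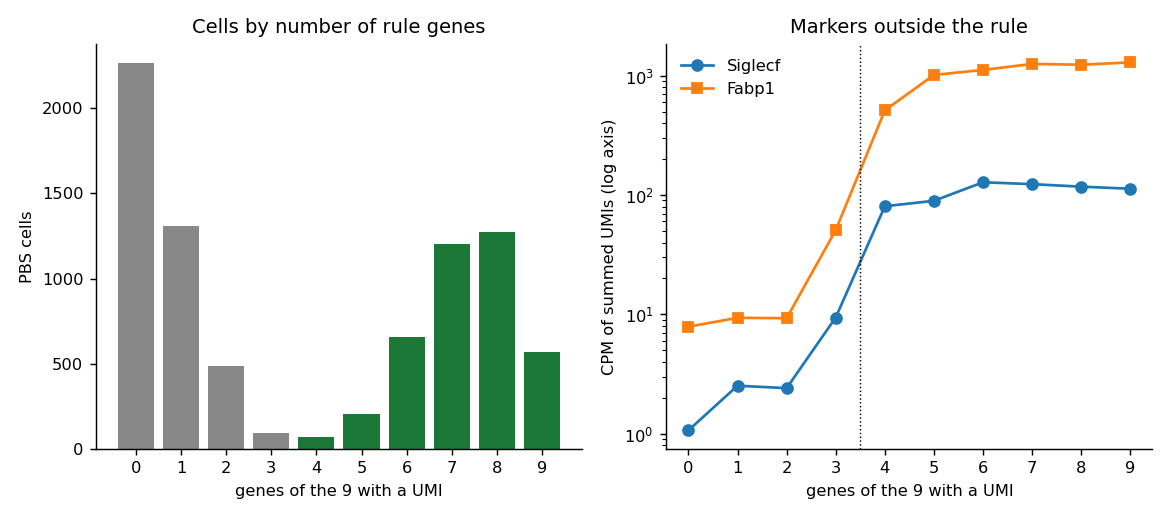
Left, number of PBS cells (vertical axis) by how many of the 9 genes of the rule had a UMI (horizontal axis); right, summed CPM of Siglecf and Fabp1 (log axis) in the same groups of cells, with the limit drawn as a dotted line. Few cells lie at 3 or 4 genes, and both markers step up across the limit.

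Some members carried signs of another cell. By rank of doublet score, 227 members (6.07%) were among the likeliest doublets of the library, and 359 (9.61%) met the marker rule of another cell class, 268 of them that of monocytes, 74 of dendritic cells, 65 of interstitial macrophages and 10 of lymphoid cells. With 205 cells under both signs, 381 cells were in doubt, and they had a median of 10672 UMIs against 7478.5 in the other 3356, and values without them are given where they matter. Summed levels of other cell types in all members were 117 CPM for 12 epithelial genes (Scgb1a1, a club cell secretory protein, alone 72.0), 45.8 for 10 neutrophil genes, 17.0 for 12 lymphoid genes (3.58 without cells in doubt) and 0.911 for 5 erythroid genes, of which Alas2 was at 0. The eosinophil, basophil and mast cell genes Epx, Prg2, Mcpt8, Fcer1a, Il5ra and Ms4a2 were all at 0. Scgb1a1 was at 239 CPM in lymphoid cells, so its level in members was not above that of cells that should lack it. The libraries held 52354207, 70474636 and 60942042 UMIs (PBS, LPS, LPS + Reg3g) and the members held 29651693 of those of PBS. PBS shared 37 barcode sequences with LPS and 28 with LPS + Reg3g, and of all members 26 shared a barcode sequence with a cell of another library.

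To see what sets the members apart from their neighbours, they were set beside 445 interstitial macrophages (median 3353 UMIs) and 2064 monocytes (median 3624.5 UMIs) of the same library. Those cells were chosen on their own markers (among them C1qa, C1qb, C1qc, Ms4a7, Cx3cr1, Pf4, Folr2 and Stab1 for the former and Ly6c2, Ccr2, Vcan, Plac8, Ace, Treml4, Itga4 and Cd300e for the latter), so their marker genes and the 9 genes of the member rule are no findings here. Among 8489 genes with at least 10 CPM in either group, 13.8% were higher in members than in interstitial macrophages by 2-fold or more and 15.0% were lower by as much. Over all of these genes the median log2 ratio was 0.10. Against monocytes the shares were 17.6% and 13.5% of 8145 genes (median 0.15), and against all 4395 other PBS cells 10.9% and 13.9% of 8389 genes. Those 4395 cells include 243 cycling alveolar macrophages, which met the rule on the 9 genes. Scaling by the median of ratios or by a trimmed mean moved the median against interstitial macrophages to 0.29 or 0.31 and the 1173 higher and 1274 lower genes to 1560 and 1093 or 1627 and 1078. A gene that reaches 10 CPM in 1 group alone has little room but to stand apart, so counts over gene lists take only genes with at least 10 CPM in both groups, a limit set after the values were seen. Among all genes so limited, 10.2% of 6769 were at least 2-fold higher in members than in interstitial macrophages and 7.86% lower, and 11.2% of 6452 were higher than in monocytes and 9.27% lower. Levels are from the 3' ends of transcripts and are compared between cells, not between genes.

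The genes listed as identity genes of alveolar macrophages were higher as a group. That list was chosen with earlier results of these data known, so its counts are a description and not a test. Of the identity genes with at least 10 CPM in both groups (Fabp1, Chil3, Ear2, Cd9 and others), 11 of 11 were at least 2-fold higher than in interstitial macrophages (median log2 ratio 3.84) and 8 of 9 higher than in monocytes (median 3.57), with Lgals3 the exception at 0.56. Of all genes so limited, 10.2% and 11.2% were higher. Another 7 and 9, Siglecf and Ear1 among them, reached that level in the members alone. Together the list made up 24698 CPM in members, 2027 in interstitial macrophages and 3221 in monocytes. Chil3, a chitinase-like lectin, stood at 6612 CPM in the members, 67.4 in interstitial macrophages and 402 in monocytes, a log2 ratio of 6.62 (6.35 to 6.89) and 4.04 (3.99 to 4.09). Ear1 and Ear2, ribonucleases related to eosinophil granule proteins, reached 1106 and 3325 CPM against 8.87 and 137 in interstitial macrophages. The tetraspanin Cd9 was at 4662 CPM against 460 and 134. Genes more usual in lymphocytes or epithelium were in this set as well: Cd2, an adhesion receptor of T cells, stood at 286 CPM in the members and 11.2 in interstitial macrophages, and Krt19, a keratin, at 394 and 7.10. Cd2 and other genes outside the ranked sets, among them Pparg, Cebpa, Bhlhe40, Bhlhe41, Maf, Mertk, Lipa, Mgll, Cd36, Msr1, Itgax, Cd274, Egr2 and Isg15, were picked after their values were seen.

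**Figure D2:**
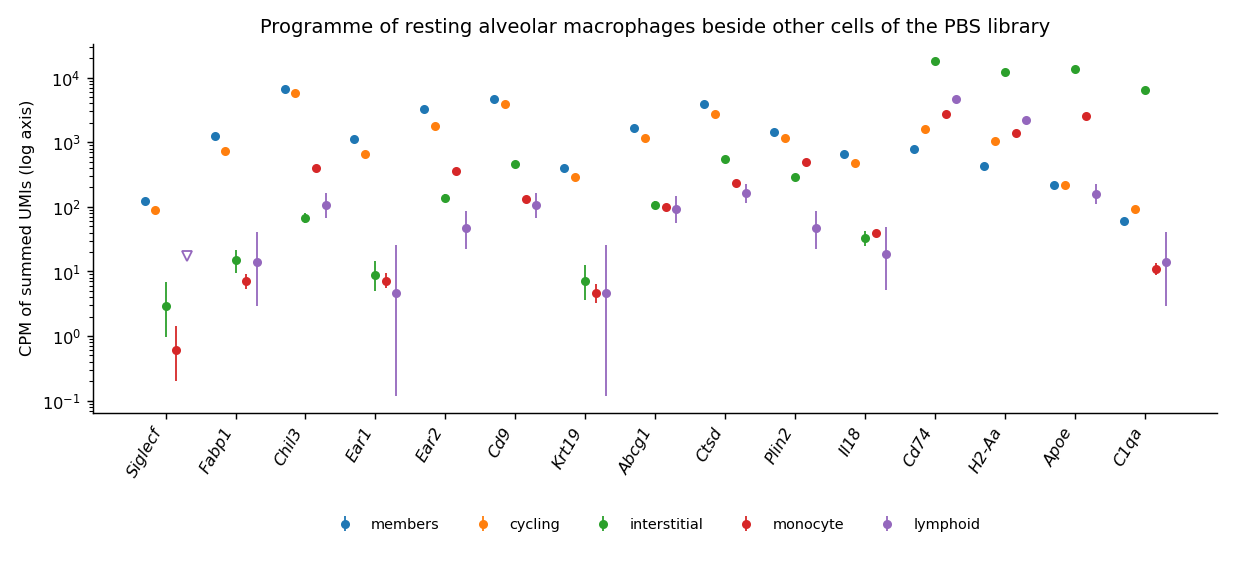
Summed CPM (log axis) of 15 genes in members, cycling alveolar macrophages, interstitial macrophages, monocytes and lymphoid cells of the PBS library, with 95% exact Poisson bars; the open triangle marks the upper end of that interval for Siglecf in lymphoid cells, where no count was seen. Siglecf, Fabp1 and Chil3 separate both kinds of alveolar macrophages from the rest, and Cd74 is highest in interstitial macrophages. C1qa is highest there too, but is a gene by which those cells were chosen.

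Besides Fabp1 and Ear1, some of the 15 genes with the largest ratios to the other PBS cells are given as a description, since the rule used this contrast. Levels in the other PBS cells include those of the cycling alveolar macrophages. Acaa1b, a peroxisomal thiolase, was at 150 CPM in members and 13.4 in the other PBS cells, and Angptl4, an inhibitor of lipoprotein lipase, at 91.2 and 9.67. Ltc4s, which makes leukotriene C4, stood at 686 CPM against 94.6 in interstitial macrophages and 4.29 in monocytes. Fpr1, a receptor for formylated bacterial peptides, was at 196 CPM against 1.18 and 3.55. Olr1, a receptor for oxidised lipoprotein, was at 312 CPM against 4.14 and 4.41. Among complement, coagulation and protease genes, F7, coagulation factor VII, stood at 362 CPM against 5.32 and 4.53, and the protease inhibitor Slpi at 627 CPM against 5.91 and 121.

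The transcription factors were mixed. Of 14 in the list, 6 were at least 2-fold higher than in interstitial macrophages and 2 lower, beside 10.2% and 7.86% of all genes. Against monocytes 6 of 13 were higher and 3 lower, beside 11.2% and 9.27% of all genes. Atf3, a stress-induced factor, was lower in both, at 359 CPM against 911 and 944. Pparg, the nuclear receptor of the alveolar programme, stood at 152 CPM in members, 13.6 in interstitial macrophages and 33.7 in monocytes, a log2 ratio of 3.49 (2.90 to 4.14) and 2.18 (2.00 to 2.36). Bhlhe41 and Bhlhe40, related repressors that support self-renewal, were at 148 and 275 CPM, against 9.46 and 73.3 in interstitial macrophages and 0.368 and 88.0 in monocytes. Cebpa stood closer, at 265 CPM against 197 and 79.4. Maf, which holds macrophages out of the cell cycle, was at 6.51 CPM in members (1.81 without cells in doubt), against 500 in interstitial macrophages and 53.9 in monocytes.

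Receptors for the growth factors behaved unlike each other. Csf2rb, the signalling chain of the GM-CSF receptor, was at 328 CPM in members against 98.8 in interstitial macrophages and 141 in monocytes, while its partner Csf2ra stood at 266, 211 and 275. Csf1r, the receptor of M-CSF, was lower, at 78.9 CPM (64.0 without cells in doubt) against 902 and 521. Tgfbr2 was at 204 CPM, between 265 in interstitial macrophages and 71.7 in monocytes. In the whole list of GM-CSF and TGF-beta signalling, 2 of 13 genes passed 2-fold upwards and 3 downwards from interstitial macrophages, beside 10.2% and 7.86% of all genes.

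Many genes that handle fat were also higher. Of 17 genes for lipid uptake, binding and storage, 8 were at least 2-fold higher than in interstitial macrophages and 2 lower, beside 10.2% and 7.86% of all genes. Against monocytes 7 of 18 were higher and 1 lower, beside 11.2% and 9.27% of all genes. The fatty acid binding proteins Fabp5 and Fabp4 stood at 1329 and 550 CPM, against 174 and 21.3 in interstitial macrophages and 115 and 196 in monocytes. The lipid droplet coat Plin2 was at 1434 CPM against 288 and 495, and Lipa, the lysosomal acid lipase, at 488 against 205 and 124. Mgll, which splits monoglycerides, was at 193 CPM against 2.37 and 2.45. The scavenger receptor Cd36 did not share this pattern, at 207 CPM against 214 in interstitial macrophages, and Msr1 was lower, at 11.0 against 52.0.

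Fatty acid oxidation genes leaned the same way. Of 16 genes, 8 were at least 2-fold higher than in interstitial macrophages and 10 higher than in monocytes, with 0 lower in either case and medians of 1.00 and 1.21. Cpt1a, which brings fatty acids into mitochondria, stood at 177 CPM against 63.3 and 96.8, and Hadha, a subunit of the mitochondrial trifunctional enzyme, at 223 against 97.0 and 75.7. The electron carrier Etfb was at 207 CPM against 50.3 and 51.6. Nuclear genes of oxidative phosphorylation passed 2-fold upwards for 3 of 24 from interstitial macrophages and 2 from monocytes, shares near or under the 10.2% and 11.2% of all genes. Their medians, 0.66 and 0.32 in log2, were nevertheless above the 0.13 and 0.11 of all genes so limited, and 0 were 2-fold lower.

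The cholesterol exporters differed from each other. Abcg1 was at 1669 CPM in the members, 108 in interstitial macrophages and 98.6 in monocytes, whereas Abca1 was at 65.0, 311 and 11.5. The carrier Apoe, at 13679 CPM in interstitial macrophages and 2577 in monocytes, was at 217 CPM in members and 70.3 without the cells in doubt. Of 10 genes of cholesterol export and LXR targets 3 were at least 2-fold higher than in interstitial macrophages and 2 lower. Of 15 genes of cholesterol synthesis 2 were higher and 0 lower, beside 10.2% and 7.86% of all genes.

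Lysosomal genes went both ways. Of 22 genes of lysosomal proteases and the proton pump, 4 passed 2-fold upwards and 3 downwards from interstitial macrophages. From monocytes 4 and 1 of 21 did. Of all genes 10.2% and 7.86% passed against interstitial macrophages and 11.2% and 9.27% against monocytes. The list medians were 0.15 and 0.43 in log2, beside 0.13 and 0.11 over all genes with at least 10 CPM in both groups. Ctsd, an aspartic protease, stood out at 3925 CPM against 553 and 232, and Ctsk, a collagen-degrading cysteine protease, at 272 against 2.37 and 4.29. Ctss was at 2918 CPM against 2224 and 2020, and Psap, the precursor of the saposins, at 2821 against 3167 and 4549. Of 15 genes that break down phospholipids and surfactant, 5 were at least 2-fold higher and 3 lower than in interstitial macrophages.

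The uptake, inhibitory and sensing receptors were each a mixture. Of 15 scavenger and uptake receptors, 5 were at least 2-fold higher and 4 lower than in interstitial macrophages. Of all genes with at least 10 CPM in both groups, 10.2% were higher and 7.86% lower. The uptake receptors named next all stood higher than in interstitial macrophages, so they do not stand for the list. The receptors for dying cells Axl and Mertk were at 596 and 241 CPM, against 333 and 68.6 in interstitial macrophages and 34.8 and 2.33 in monocytes. The fungal lectin receptors Clec7a and Clec4n were at 1007 and 512 CPM, against 296 and 85.8 in interstitial macrophages. Of 14 inhibitory receptors and mediators 4 were higher and 6 lower, with a median log2 ratio of -0.51. Those named next all stood higher in members, and the lower ones are not named. Sirpa, which reads the "do not eat" signal CD47, was at 942 CPM against 575 and 391, Cd300lf at 247 against 16.6 and 47.7, and the interleukin 1 antagonist Il1rn at 154 against 68.6 and 12.7. Among sensors, Tlr2 was at 466 CPM against 331 and 158 and Tlr4 at 43.4 against 29.0 and 7.72, while their co-receptor Cd14 was at 104 CPM against 877 and 355.

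Genes of the interferon response and of MHC class II were low in the members. Of all genes with at least 10 CPM in both groups, 7.86% were at least 2-fold lower than in interstitial macrophages and 10.2% higher. Against monocytes those shares were 9.27% and 11.2%. The 25 interferon-response genes summed to 250 CPM in members, 644 in interstitial macrophages and 1996 in monocytes. In each comparison 6 of them had at least 10 CPM in both groups, of which 2 were at least 2-fold lower than in interstitial macrophages and all 6 lower than in monocytes, while 10 and 16 more reached that level in those cells alone. Bst2, which tethers budding viruses, was at 84.0 CPM against 238 and 310. Isg15, a ubiquitin-like protein of that response, was at 8.70 CPM against 29.0 and 112. Inflammatory cytokines and chemokines were at least 2-fold lower than in interstitial macrophages for 9 of 14 genes and higher for 2, Ccl6 and Il18, while against monocytes 5 of 11 were lower and 3 higher. Il1b stood at 77.7 CPM against 585 and 716, and Cxcl2, a chemokine that draws neutrophils, at 449 against 2839 and 310. Il18, made as an inactive precursor, went the other way at 660 CPM against 32.5 and 39.6, as did Ccl6 at 4489 against 682 and 1234. Genes of MHC class II and co-stimulation were at least 2-fold lower than in interstitial macrophages for 7 of 7, while Cd274 (PD-L1, an inhibitory ligand), under 10 CPM in those cells, stood at 85.0 CPM against 8.87 and 22.2. The summed level of the list was 2433 CPM in all members and 1054 without cells in doubt, against 50836 in interstitial macrophages and 6651 in monocytes. Immediate early genes, which also answer to tissue digestion, were summed at 9010 CPM in members against 19502 and 19520, with 10 of 17 at least 2-fold lower than in interstitial macrophages and Egr2 (223 against 111 CPM) the 1 that was higher.

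Leaving out the cells in doubt moved few summed levels by 2-fold. Of 7521 genes, 53 (0.705%) were at least 2-fold higher in all members than in the members without these cells. The groups share 3356 of the 3737 members, so the 0.00% found at least 2-fold lower was set by this overlap. Only genes much higher in the cells in doubt could pass 2-fold upwards. C1qa, a complement component, stood at 60.4 CPM in all members and 7.05 without these cells, and H2-Aa at 423 and 113. Siglecf, Fabp1, Chil3 and Pparg stood at 127, 1319, 6892 and 161 CPM without them.

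The 243 cycling alveolar macrophages of the same library gave the nearest comparison. They met the same rule on the 9 genes but had at least 3 of the 7 cycle genes, and 0.390% of 8207 genes stood 2-fold or more above them in the members and 8.79% stood 2-fold or more under them. The 24 cell cycle genes outside the rule summed to 1062 CPM in members and 8757 CPM in cycling cells, which were chosen on genes of the same process. Siglecf was at 89.2 CPM and Fabp1 at 738 CPM in cycling cells. None of the 18 identity genes differed by 2-fold.

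To describe the spread between cells, 3464 members were thinned to 4000 UMIs each (273 were too shallow), of which 3090 were not in doubt. The overdispersion of a gene, its variance beyond counting noise divided by the squared mean, is near 0 where cells differ by no more than counting and passes 1 where the SD beyond counting exceeds the mean. Its median over 5013 genes with a mean of at least 0.1 UMI was 0.14 without cells in doubt, and 189 genes (3.77%) were above 1; with all members 214 of 5022 (4.26%) were. Of 18 identity genes 15 lay above that median and 4 above 1 (Spp1, Ctsk, Epcam and Gpnmb), with a list median of 0.25. Siglecf had an overdispersion of 0.06, Abcg1 of 0.12, Cd9 of 0.15, Chil3 of 0.23 and Ear2 of 0.27.

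**Figure D3:**
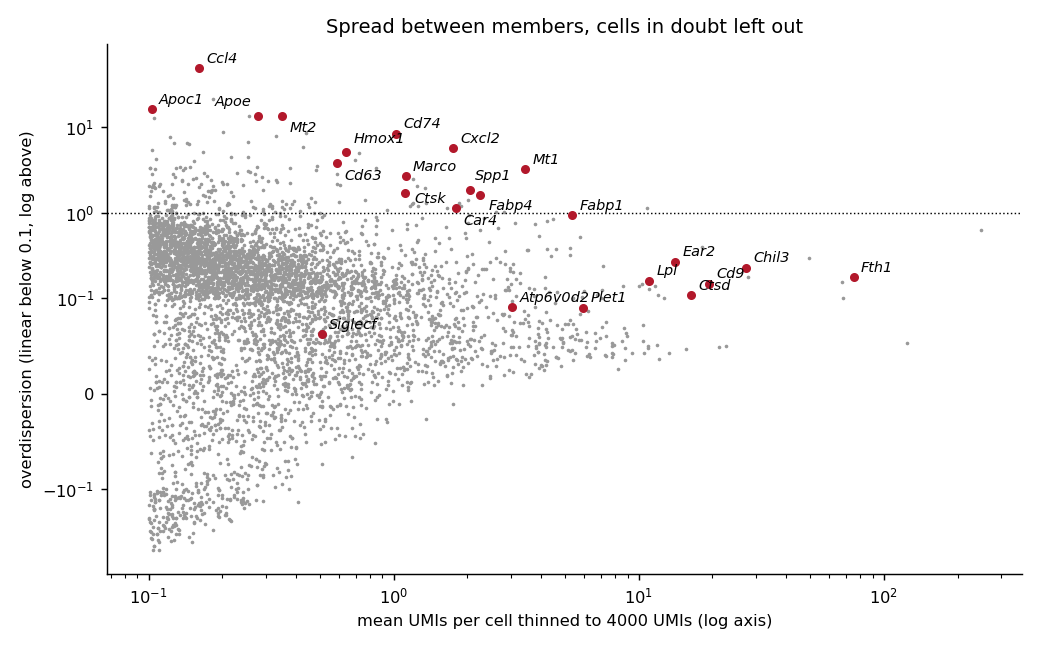
Overdispersion over 3090 thinned members without cells in doubt (vertical axis) against mean UMIs per thinned cell (horizontal axis, log), 1 point per gene, with a dotted line at 1. Cd9, Chil3 and Abcg1 lie at 0.12 to 0.23, near the median of 0.14, and Spp1, Mt1, Cxcl2 and Ccl4 lie above the line.

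These 4 and a few others were uneven from cell to cell. Spp1, osteopontin, had an overdispersion of 1.86: 36.5% of the thinned cells had no UMI, 13.5% had 5 or more and the highest had 41. Ctsk (1.71), Fabp4 (1.58) and the rule gene Marco, a scavenger receptor, were uneven too, and the top 5% of cells held 35.5% of all Marco UMIs. Fabp1 ranged from 0 UMIs at the 10th percentile to 13 at the 90th around a median of 4, with an overdispersion of 0.93. Chil3, by contrast, ran from 10 to 46 UMIs around a median of 26 with 1 cell at 0, and Cd9 from 8 to 31 around 19 with 0 cells at 0. Spp1 had a UMI in 73.2% of members (45.4% thinned to 2000 UMIs) and in 2.15% of lymphoid cells (4.08% thinned). Marco had a UMI in 46.3% of members (28.4% thinned) and in 0% of lymphoid cells. Since Marco is a gene by which members were chosen, that contrast is shaped by the rule and is no finding.

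Several chemokine, cytokine and metal-handling genes were more uneven still. Ccl4, a chemokine, had an overdispersion of 48.5, Mt2 of 13.3, Il1b of 8.72, Cxcl2 of 5.63, Hmox1, which breaks down haem, of 5.09 and Mt1 of 3.22. For Cxcl2 69.3% of cells had no UMI, the highest had 78 and the top 5% of cells held 48.2% of all UMIs. Mt1, a metallothionein, had no UMI in 17.2% of cells and reached 95 UMIs in another. Cst3 shows what cells in doubt do to this measure, at 2.16 over all members and 0.21 without them.

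Whole gene lists were read the same way, as the spread of a list's share of each cell's UMIs over the spread that counting alone gives. Without cells in doubt the ratio was 4.43 for iron, zinc and metallothionein genes, 3.28 for immediate early genes, 3.24 for MHC class II (7.26 with all members), 2.86 for identity genes and 2.74 for cytokines. It was 1.40 for oxidative phosphorylation, 1.16 for glycolysis, 1.11 for fatty acid oxidation and 1.09 for GM-CSF and TGF-beta signalling. A list with many UMIs shows the same relative spread as a higher ratio, so lists of unlike abundance are not ranked by it. As a percent of the list's mean, the SD beyond counting was 16.4% for oxidative phosphorylation, 16.9% for fatty acid oxidation, 18.0% for glycolysis, 20.2% for lysosomal genes and 26.1% for identity genes, against 40.6% for metal genes, 51.4% for cytokines, 53.2% for immediate early genes and 105% for cholesterol synthesis. Identity genes took 1.62% of UMIs in the cell at the 10th percentile, 2.60% at the median and 3.48% at the 90th, and immediate early genes 0.325%, 0.750% and 1.52%.

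**Figure D4:**
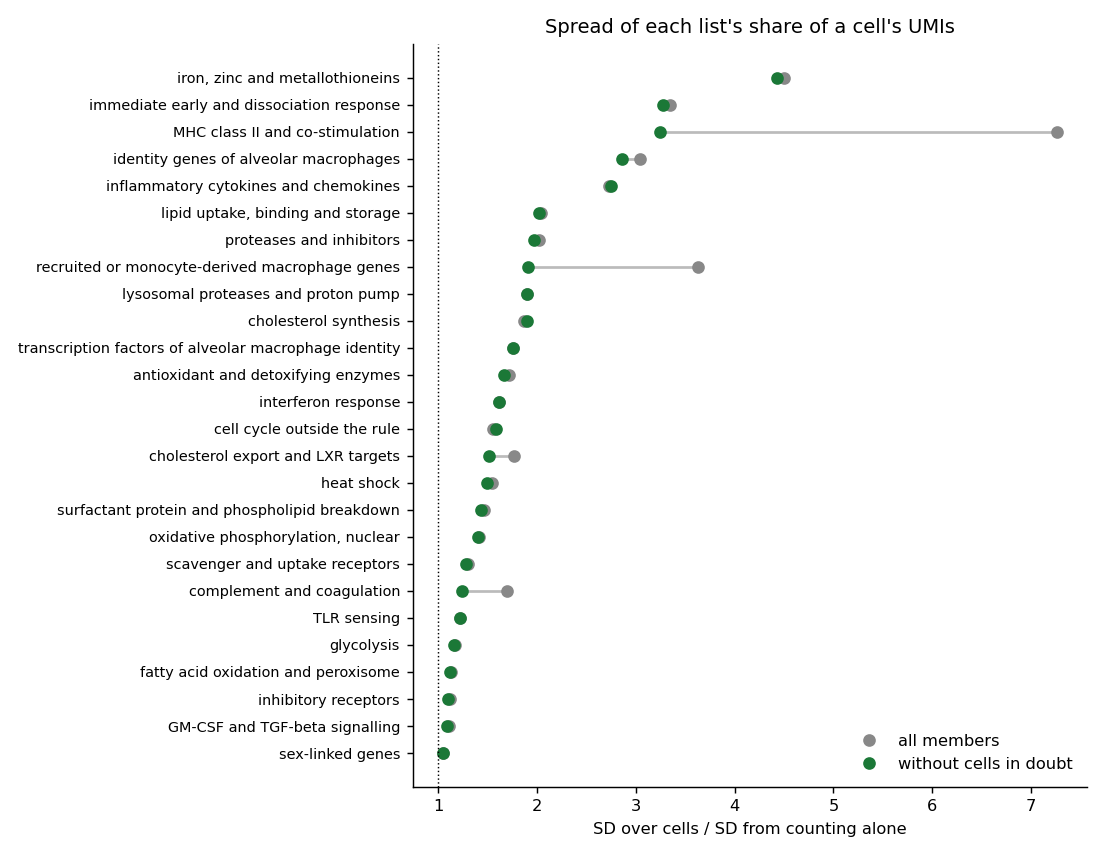
Ratio of the SD over thinned cells of each gene list's share of UMIs to the SD from counting alone (horizontal axis), for all members (grey) and without cells in doubt (green). MHC class II moves from 7.26 to 3.24 without these cells, while iron, zinc and metallothionein genes and immediate early genes stay above 3.

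Some pairs of genes varied together over the 3090 cells, all of 1 library and thinned to 1 depth. Among 534 genes, the highest Pearson's r of log counts, 0.57, was that of Mir6236 with the ribosomal RNA gene Rn18s-rs5, and Lars2 went with these at 0.57 and 0.53. It was 0.56 for Ftl1 and Fth1, the ferritin chains, 0.56 for Chil3 and Cd9, 0.51 for Ear1 and Ear2, 0.49 for Cd9 and the lysozyme Lyz2, 0.41 for Jun and Klf2 and 0.36 for Fosb and Fos. Mt1 and Mt2, a pair chosen after values were seen, had an r of 0.55. Ear1 and Ear2 are near copies of each other, so their reads may be split between them. Rn18s-rs5 went against Fth1, at -0.44. Between lists the highest r was 0.44, of lysosomal proteases with other proteases and inhibitors.

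Clustering the 3356 members not in doubt gave 8 sub-clusters, which are described by number and not tested, since they were cut from the same values. The largest, with 1132 cells (33.7%), had more of the immediate early and alarm genes, with Cxcl2 at 824 CPM against 235 in the other members and Atf3 at 593 against 199. The next, with 944 cells, had more Ctsk (367 against 255 CPM) and Cd63 (240 against 125). Sub-cluster 3, with 362 cells, had more of the nuclear receptors Nr4a3 (111 against 23.3 CPM) and Nr4a2, and of Abca1 (142 against 57.2). The leading fold of sub-cluster 4, with 357 cells, was 1.42 (Wfdc17), and its median mitochondrial share was 0.104%.

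The smaller sub-clusters had sharper genes. Sub-cluster 5, with 184 cells, had the cholesterol synthesis genes Sqle (147 against 16.8 CPM) and Fdps (116 against 14.5), and more Spp1, at 1154 CPM. Sub-cluster 6, with 166 cells, had the replication genes Uhrf1 (69.4 against 1.47 CPM) and Mcm2, below the cycle limit of the rule. Sub-cluster 7, with 127 cells, had Cd74 at 2743 CPM against 156 and H2-Ab1 at 895 against 52.6, with a Cd74 UMI in 100% of its cells against 41.8%, while its leading gene by fold, Il12b, was seen in 1.57% of them. Sub-cluster 8, with 84 cells, held 240412 CPM of Rn18s-rs5 against 61436 and had a median of 2729 UMIs and a median mitochondrial share of 3.30%. Siglecf ran from 105 to 134 CPM and Pparg from 145 to 172 CPM over the 8. Other genes were less even: Fabp1 ran from 531 CPM in sub-cluster 8 to 1465 in sub-cluster 1. Ear2 ran from 1884 CPM in sub-cluster 8 to 4242 in sub-cluster 7, and the rule gene Car4 from 245 in sub-cluster 8 to 1050 in sub-cluster 5. Without the shallow sub-cluster 8, the lowest levels were 1091 CPM for Fabp1 in sub-cluster 5, and 2630 for Ear2 and 325 for Car4 in sub-cluster 3.

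The same rule was applied to the LPS and LPS + Reg3g libraries to place the resting values, giving 5954 and 4602 cells (42.9% and 47.6% of cells passing the limits; median 6281.5 and 7762.5 UMIs). Of these, 1012 and 627 were in doubt by the same signs, beside 381 of the 3737 members. The marker rule of monocytes was met by 727 and 511 of them, beside 268 members. Cells in doubt are kept in the levels of all 3 libraries given here. Both comparisons share the PBS members, so they are given side by side and not set against each other. Of 7813 genes, 12.5% were lower by 2-fold or more and 5.99% higher by 2-fold or more in the LPS cells, and of 7790 genes 10.2% were lower and 5.21% higher in the LPS + Reg3g cells. The median over all genes was -0.21 and -0.17 in log2. Of the genes past 2-fold, 32.4% and 33.7% were higher than in the members, which became 62.1% and 59.6% with median-of-ratios scaling (medians 0.17 and 0.15) and 55.6% and 56.4% with a trimmed mean (0.09 and 0.10). Fth1 alone stood at 18416 CPM in PBS, 82900 in LPS and 76892 in LPS + Reg3g, and summed mitochondrial genes at 7524, 3970 and 5060 CPM. Their part in that shift was not tested.

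Against that shift, the identity genes stood well to 1 side. Of 17 with at least 10 CPM in both libraries, 12 were at least 2-fold lower and 2 higher (Ctsk and Gpnmb) in each of the LPS libraries, with medians of -2.32 and -2.01, beside 8.62% lower and 4.19% higher of all genes so limited in LPS. In LPS + Reg3g 474 of all 6770 such genes were lower and 3.60% higher. Siglecf was at 121 CPM in PBS, 10.6 in LPS and 17.5 in LPS + Reg3g, a log2 difference of -3.52 (-3.67 to -3.37) and -2.80 (-2.92 to -2.68). Its share of cells with a UMI was 6.11% and 11.7% in the LPS libraries (2.44% and 4.01% thinned), beside 0% of their 97 and 60 lymphoid cells, whose median depths were 1578 and 1862.5 UMIs. The identity genes were not lower alike. Ear2 was at 3325, 664 and 748 CPM, Cd9 at 4662, 1634 and 1973, Abcg1 at 1669, 368 and 438, and Spp1 at 516, 31.2 and 56.6, while Chil3 stood at 6612, 4468 and 4667 and Itgax, which encodes CD11c of the sorting gate, at 339, 325 and 332. Siglecf, Ear2, Cd9, Abcg1 and Spp1 were all highest in PBS by more than their counting intervals.

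The 9 genes of the rule diverged, which bears on which cells the rule finds in each library. Car4, a membrane carbonic anhydrase, stood at 454 CPM in PBS, 2321 in LPS and 2193 in LPS + Reg3g, and Marco at 277, 1011 and 921. Plet1 was at 1418, 659 and 682 CPM and Cidec, a lipid droplet protein, at 320, 109 and 93.7. Slc39a2, a zinc transporter, was at 76.7, 346 and 279 CPM, and the mannose receptor Mrc1 was lower by log2 -1.03 in LPS and -0.73 in LPS + Reg3g. Atp6v0d2, Krt79 and Lpl stood nearer to the resting level, with log2 differences of 0.25, -0.35 and 0.25 in LPS and 0.18, -0.32 and 0.21 in LPS + Reg3g, sizes within the shift between scalings. Whether the rule picks the same kind of cell in the 3 libraries cannot be told apart from these differences.

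**Figure D5:**
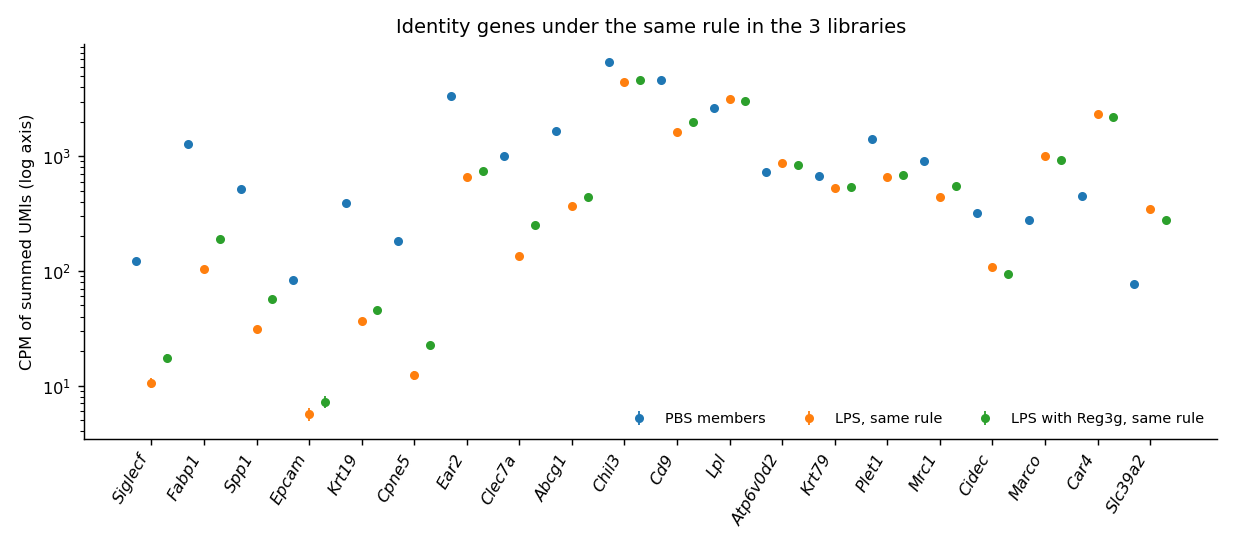
Summed CPM (log axis) of 20 identity and rule genes in the cells that met the same rule in the PBS, LPS and LPS + Reg3g libraries, 1 point per library. Most identity genes are highest in PBS, and Car4 and Marco are lowest in PBS.

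Regulators and lipid genes of the resting state were lower in the LPS libraries in part. Pparg was at 152 CPM in PBS, 61.1 in LPS and 79.7 in LPS + Reg3g, Cebpa at 265, 50.1 and 59.9, and Klf4 at 788, 170 and 169. Bhlhe41 stood nearer, at 148, 86.7 and 101. Of 16 transcription factors 9 were at least 2-fold lower in LPS and 7 in LPS + Reg3g, and Csf2rb, at 328, 592 and 616 CPM, was higher in both. Fatty acid oxidation had 6 of 19 genes at least 2-fold lower in LPS and 4 in LPS + Reg3g, beside 8.62% of all genes in LPS and 474 of 6770 in LPS + Reg3g, and its median log2 difference of -0.58 in LPS and -0.55 in LPS + Reg3g was -0.20 and -0.23 with median-of-ratios scaling. Among its genes, Cpt1a was at 177, 84.2 and 88.5 CPM. Storage and binding genes were not lower as a block, with Plin2 at 1434, 1628 and 1360 CPM and Fabp4 at 550, 1092 and 1020.

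Other genes highest in PBS against both LPS libraries included Cpne5, a calcium-binding copine, at 181, 12.3 and 22.5 CPM, and Epcam, an epithelial adhesion protein, at 83.5, 5.60 and 7.24. Alox5, which starts leukotriene synthesis, was at 126, 11.8 and 15.9 CPM and the chemokine receptor Cxcr4 at 94.6, 11.8 and 9.40. Near-silent genes of the resting cells that were present in the LPS libraries included Acod1, which makes itaconate, at 0.236, 197 and 160 CPM, the activin subunit Inhba at 2.56, 247 and 240, and Ccl5 at 10.7, 1568 and 1646. The interferon list summed to 250 CPM in PBS, 1126 in LPS and 983 in LPS + Reg3g, with 4 of the 6 genes at 10 CPM or more in both libraries at least 2-fold higher in each. Cytokines and chemokines summed to 6196, 21529 and 20122 CPM, and of those with at least 10 CPM in both libraries 10 of 14 and 10 of 13 were at least 2-fold higher. Of all genes so limited, 4.19% in LPS and 3.60% in LPS + Reg3g were higher.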

How the data were processed

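RNA was read from 1 droplet library (10x GEM-X, 3' ends) per group. The authors deposited UMI counts per gene and barcode, from 500 UMIs per barcode upwards; bcl2fastq 5.0.1, Cell Ranger 9.0.1, Seurat 4.4.0 and the build mm10 are named in the submitters' processing notes. The labels do not say how barcodes were chosen.

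From these counts, barcodes were filtered and members found by the stated rule, UMIs were summed per group and expressed as CPM. A gene was called at 2-fold among genes with at least 10 CPM in either group, with exact conditional binomial 95% intervals and a floor of 3 counts; there was no significance test. Doublet scores came from Scrublet in scanpy 1.11.5, ranked at 0.4% per 1000 barcodes; ranked cells were kept and also left out as an alternative. Thinning was to 2000 UMIs (shares) or 4000 (spread). Sub-clusters used 1000 variable genes, 20 principal components, 15 neighbours and Leiden resolution 0.5 (leidenalg 0.10.2). Python 3.11.15, numpy 2.4.6, scipy 1.17.1 and pandas 2.3.3 were used, and the ratio and spread calculations were tested on simulated data. Where several identifiers share a symbol, the symbol stands for the one with most UMIs.

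The members and the 32 gene lists were chosen with earlier results of these data known. Named genes were the markers and rule genes, the 15 highest in CPM, the 15 highest ratios to other PBS cells (from 50 CPM), the 12 highest and 6 lowest in overdispersion, the 12 highest and 8 lowest in PBS against both LPS libraries, the 5 leading genes of each sub-cluster and up to 6 genes of highest CPM per list; rankings skipped genes of ribosomal proteins, mitochondria, haemoglobins and immunoglobulins as well as predicted genes, and those of ratios between libraries also skipped genes under 10% of their level in another class of the library. Alternatives were stricter cell filters, 3 or 5 genes of the rule, no cycle gene, other scalings, equal weight per cell, other minimum levels, other thinning and clustering settings, and, chosen after seeing the data, leaving out cells in doubt, comparing the classes under other scalings, and counting list genes only where both groups reach 10 CPM.

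Some genes are not reported here.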

Additional observations from a re-analysis of the deposited data

How the results depend on the processing

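With 1 library per group nothing here tests mice or treatment, and depth limits the shares of cells with a UMI. No paired analysis was possible because each group had 1 library. Of the comparisons' main values under alternatives, 63 stayed alike (within 1.5 times for a count), 13 counts were lower and 11 higher by more than that, and 3 shares moved by more than their interval. List values were less stable: of list medians (LPS libraries over PBS) and list spreads under alternatives, 133 stayed alike and 145 moved. A median counted as moved past 0.25 in log2 and a spread ratio past 1.5 times. The 911 genes at least 2-fold higher in members than in other PBS cells became 599 with no cycle gene allowed, 472 from 50 CPM and 2374 with no minimum beyond 3 counts. With no cycle gene allowed, members with a UMI for any of those genes were counted among the other PBS cells. The 978 genes lower in LPS became 523 (median of ratios), 588 (trimmed mean), 423 (from 50 CPM) and 3999 (no minimum), and the 468 higher became 856, 735, 249 and 1801. For LPS + Reg3g the 797 lower became 458, 487, 343 and 3760, and the 406 higher 676, 629, 218 and 1528. The median over all genes turned from -0.21 to 0.17 (LPS) and from -0.17 to 0.15 (LPS + Reg3g) with the median of ratios, as did small list medians such as that of GM-CSF and TGF-beta signalling in LPS, from -0.20 to 0.17. The cause of the changes with scaling was not tested. Shares with a UMI became 22.2% (Siglecf) and 72.4% (Fabp1) after thinning to 2000 UMIs, and 88.5% for Fabp1 with 3 genes of the rule. The 214 genes of overdispersion above 1 became 110 (2000 UMIs), 106 (mean of at least 0.2) and 500 (mean of at least 0.05). Clustering all members, cells in doubt included, also gave 8 sub-clusters, which became 4 at resolution 0.25 and 14 at resolution 1. The sub-clusters described above, of members not in doubt, were not cut at other resolutions. The member count ran from 3151 to 3824.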

Other observations

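Mitochondrial genes separated a set of members with little else to tell them apart. Of the 3356 members not in doubt, 429 (12.8%) had under 0.25% mitochondrial UMIs, a limit chosen after seeing the data. Their summed mitochondrial level was 1092 CPM against 8652 CPM in the rest, 7.93-fold lower, while 0 of 3138 nuclear genes from 50 CPM differed by 2-fold and the median depth was 7686 against 7445 UMIs. Fabp1 stood at 1440 CPM in them and 1301 in the rest, and Cox4i1, a nuclear gene of the respiratory chain, at 1231 and 1199. Such cells made up 19.9% of the other PBS cells, 25.8% of the cells found by the same rule without doubt in LPS and 15.5% in LPS + Reg3g.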
